A study of Mus musculus with 32 samples.

Results

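Cyp24a1, Cyp27b1, Vdr and Rxra are 4 genes that break down, activate and sense vitamin D. They were chosen by symbol from the 55103 gene rows of a bulk RNA sequencing table of mouse tumours, and Cyp24a1 was chosen because its measured level moved in opposite directions after carbon ions and after photons. All 4 passed the filter on low counts, which kept 20474 genes. The tumours were grown in mice from KPC36, 1 mouse cell line of the KPC type, which is derived from pancreatic tumours. There were 32 libraries in 4 groups of 8: untreated tumours of the carbon-ion arm (treatment label carbon_ctrl), the carbon-ion treated tumours (carbon_treated), untreated tumours of the photon arm (photon_ctrl) and the photon treated tumours (photon_treated). The design text places collection at days 4 and 7, but the labels give no day, dose, host strain, sex or age for a library, so each group may mix both days. Nothing in the labels says which libraries came from separate animals, so the p-values measure the spread between these libraries.

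Vitamin D becomes a hormone in steps. Cyp2r1 and related liver enzymes make the circulating form, and Cyp27b1 turns that form into the active hormone, calcitriol. Calcitriol binds the receptor Vdr, which pairs with a retinoid X receptor such as Rxra and acts on genes that carry its response element. Cyp24a1 is one of the classic target genes of Vdr: its product hydroxylates calcitriol and its precursor, which starts their breakdown and closes a feedback loop. In pancreatic tumours Vdr is known above all from the stellate cells of the stroma, where its ligands push the cells toward a resting state.

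Totals ran from 13891863 to 71645903 estimated counts per library, with group medians between 31429281 and 34990820. The labels give the cell type as malignant, and 8 epithelial markers (Epcam, Cdh1, Muc1 and keratins among them) summed to group medians of 3621 to 4657 CPM (counts scaled to a common library total). Markers of fibroblasts, macrophages, T cells, neutrophils and endothelium were also present. Title letters D and M, whose meaning the labels do not give, split the carbon-ion arm: 4 controls and 3 treated libraries have D, and all photon libraries have M. Everything that set the arms apart other than the beam cannot be told apart from the arm itself. Within the photon arm, the number in every treated title is higher than that in every control title. In the carbon-ion arm the title numbers of controls and treated libraries interleave. What these numbers stand for is not given. Anything that shifted along them would also enter the photon changes given here, and this was not tested.

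The opening comparison of the 4 genes is of their levels. Rxra and Vdr were expressed in every library, whereas Cyp24a1 and Cyp27b1 were near the limit of detection. Per kilobase of annotated exon, the mean level over the 32 libraries was 13.9 CPM for Rxra and 2.56 CPM for Vdr. On the same scale it was 0.0837 CPM for Cyp24a1 and 0.0799 CPM for Cyp27b1. Estimated counts per library ran from 1 to 24 for Cyp24a1, from 0 to 28 for Cyp27b1, from 166 to 889 for Vdr and from 1044 to 5331 for Rxra. Values of the 2 hydroxylases therefore carry far more counting error than those of the 2 receptors. In bulk tissue, fewer cells of a type and less RNA per cell cannot be told apart.

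**Figure D1:**
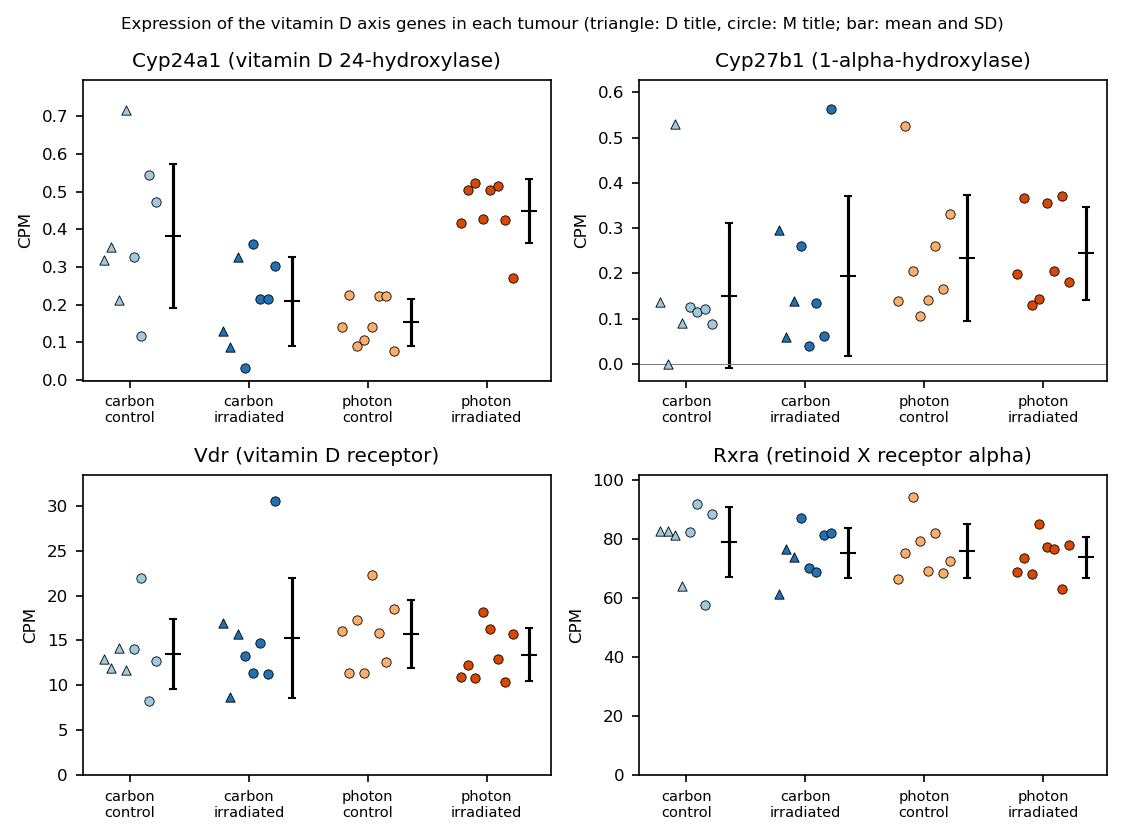
Each point is 1 tumour library, the vertical axis is CPM on a linear scale, and the bar beside each group is the mean with 1 SD (n = 8). Triangles are libraries with D titles and circles those with M titles. The photon groups of Cyp24a1 do not overlap (0.0765 to 0.225 CPM in the controls, 0.270 to 0.522 CPM after photons). Its photon change was among the values that chose it. The groups of Vdr, Rxra and Cyp27b1 overlap throughout.

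Cyp24a1, the catabolic enzyme, lies on mouse chromosome 2 at chr2:170482708-170497145 on the minus strand (GRCm38, GENCODE release M21), with 1 annotated transcript. In the photon controls its lowest, median and highest levels were 0.0765, 0.140 and 0.225 CPM. In the photon treated tumours they were 0.270, 0.466 and 0.522 CPM. Every photon treated library was above every photon control, and 7 of the 8 were packed between 0.418 and 0.522 CPM, with treated replicate 8 alone below them. That separation is a description, since the photon values helped choose the gene. The share of all genes whose photon groups lie apart was not counted.

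In the carbon-ion arm Cyp24a1 went the other way. The untreated controls of that arm had a lowest level of 0.115, a median of 0.339 and a highest of 0.717 CPM. After carbon ions the lowest was 0.0324, the median 0.214 and the highest 0.362 CPM. These groups overlapped, and 7 of the 8 treated libraries were below the control median. On the log2 scale the SD was 0.68 in the carbon-ion controls and 0.77 in the carbon-ion treated tumours.

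Ordered by mean, Cyp24a1 was highest in the photon treated tumours at 0.448 ± 0.0843 CPM (SD, n = 8). The carbon-ion controls followed at 0.382 ± 0.191, then the carbon-ion treated tumours at 0.209 ± 0.118, and the photon controls were lowest at 0.153 ± 0.0621 CPM (SD, n = 8 each). Each neighbouring pair in this order differed by less than the larger of its SDs. In whole groups the estimated counts behind these means were 122 after photons, 106 in the carbon-ion controls, 60 after carbon ions and 40 in the photon controls.

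The fitted changes of Cyp24a1, each with its standard error (SE), are a description, since its values in these same contrasts chose it, and no test is given. After photons the log2 fold change was 1.53 (SE 0.35), which is 2.90-fold. After carbon ions it was -0.86 (SE 0.34). The carbon-ion effect minus the photon effect was -2.40 (SE 0.49).

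Both untreated groups of Cyp24a1 were themselves apart. The carbon-ion controls were above the photon controls by 1.31 on the log2 scale (SE 0.35), and all but 1 of them were above the photon control median. The treated groups stood the opposite way, with a log2 fold change of -1.09 (SE 0.34) for carbon ions against photons. The gap between the untreated groups was larger than the change after carbon ions and smaller than that after photons. The contrasts share libraries: a low photon control group enters both the photon change and the gap between the controls, and a high carbon-ion control group enters both the carbon-ion change and that gap.

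Among the D- and M-titled carbon-ion controls, Cyp24a1 averaged 0.400 and 0.364 CPM (n = 4 each). In the carbon-ion treated tumours it averaged 0.182 CPM with D titles (n = 3) and 0.225 CPM with M titles (n = 5). The choice of the gene did not use the letter, so this contrast was tested: D minus M at fixed group was -0.03 on the log2 scale (SE 0.35, 95% interval -0.74 to 0.68, edgeR adjusted p = 1). No gene passed this contrast (0% of those tested, 408 at an unadjusted p under 0.05), and DESeq2 also called 0. With M titles alone the carbon-ion change of Cyp24a1 was -0.68 and the photon change 1.54.

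The first exon of Cyp24a1 shares 83 bases (chr2:170496517-170496599, 2.33% of its exon bases) with Pfdn4, a prefoldin subunit gene on the opposite strand. The library kit keeps strand, but the strand setting of the counting is not given in the sources used here. Pfdn4 had group medians of 4.99 to 5.84 CPM, and its change did not pass the test in either arm. Its log2 fold change was -0.05 after carbon ions (edgeR adjusted p = 0.997) and 0.06 after photons (adjusted p = 0.860).

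The 3 nearest tested protein-coding genes toward lower coordinates from Cyp24a1 were Bcas1, Zfp217 and Tshz2, and the 3 toward higher coordinates were Pfdn4, Dok5 and Fam210b. None of the 6 passed the test in the carbon-ion effect, the photon effect or the difference between them. Their photon effects ran from -0.31 for Dok5 to 0.06 for Pfdn4, and that of the zinc finger gene Zfp217 was -0.08.

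Cyp27b1, which makes the active hormone, lies at chr10:127048250-127053006 on the plus strand. Its lowest, median and highest levels were 0, 0.118 and 0.530 CPM among carbon-ion controls, and 0.0402, 0.137 and 0.563 CPM after carbon ions. In the photon controls they were 0.106, 0.185 and 0.525 CPM, and after photons 0.131, 0.202 and 0.371 CPM. The 4 groups overlapped almost completely, and in each of the first 3 a single library stood well above the rest.

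No change of Cyp27b1 passed the test. The log2 fold change was 0.25 after carbon ions (SE 0.51, 95% interval -0.78 to 1.28, edgeR adjusted p = 0.997). After photons it was 0.02 (SE 0.48, interval -0.96 to 1.01, adjusted p = 0.984). The carbon-ion value rests on single libraries: it was -0.16 without treated replicate 8 and 0.86 without control replicate 3. The carbon-ion interval reaches from -0.78 to 1.28 and so does not exclude a change of either sign within those bounds.

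Vdr, the receptor, lies at chr15:97854425-97910630 on the minus strand. Its lowest, median and highest levels were 8.27, 12.8 and 21.9 CPM among carbon-ion controls, and 8.72, 14.02 and 30.5 CPM after carbon ions. In the photon controls they were 11.4, 15.9 and 22.3 CPM, and after photons 10.4, 12.6 and 18.1 CPM. All 4 ranges overlapped, and the highest value of the study was a lone carbon-ion treated library.

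Neither beam changed Vdr past the threshold. Its log2 fold change was 0.18 after carbon ions (SE 0.20, 95% interval -0.22 to 0.59, edgeR adjusted p = 0.997) and -0.22 after photons (SE 0.20, interval -0.63 to 0.18, adjusted p = 0.549). Without carbon-ion treated replicate 8, the high library, the carbon-ion value was -0.04. The difference between the effects was 0.41 (SE 0.28, interval -0.17 to 0.98, adjusted p = 0.534), opposite in sign to that of Cyp24a1. Between the controls of both arms Vdr differed by -0.22 (adjusted p = 0.545), where Cyp24a1 differed by 1.31.

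Rxra, the partner of Vdr, lies at chr2:27676440-27762957 on the plus strand and was the steadiest of the 4 genes. Its lowest, median and highest levels were 57.7, 82.6 and 91.9 CPM among carbon-ion controls, and 61.2, 75.3 and 87.0 CPM after carbon ions. In the photon controls they were 66.5, 73.9 and 94.2 CPM, and after photons 62.9, 75.0 and 85.1 CPM. The group medians thus lay close together.

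For Rxra the intervals were narrow. The log2 fold change was -0.07 after carbon ions (95% interval -0.25 to 0.11, edgeR adjusted p = 0.997) and -0.04 after photons (interval -0.22 to 0.14, adjusted p = 0.832). The difference between the effects was -0.03 (interval -0.29 to 0.23, adjusted p = 0.929). The fitted changes of Cyp24a1 lay outside these bounds, but they chose that gene and carry their own SE. No difference between Rxra and Cyp24a1 was tested.

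Of the 3 genes that could be tested, 0 passed in the carbon-ion effect, where 0% of all tested genes did (0 by edgeR, 1177 at an unadjusted p under 0.05, 17 by DESeq2). In the photon effect 0 of 3 passed, against 3.81% of all genes. In the difference of the effects 0 of 3 passed, against 0.0781% of all genes. Between the controls of both arms 0 of 3 passed, against 9.14% of all genes, and between the treated groups 0 of 3, against 5.08%.

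**Figure D2:**
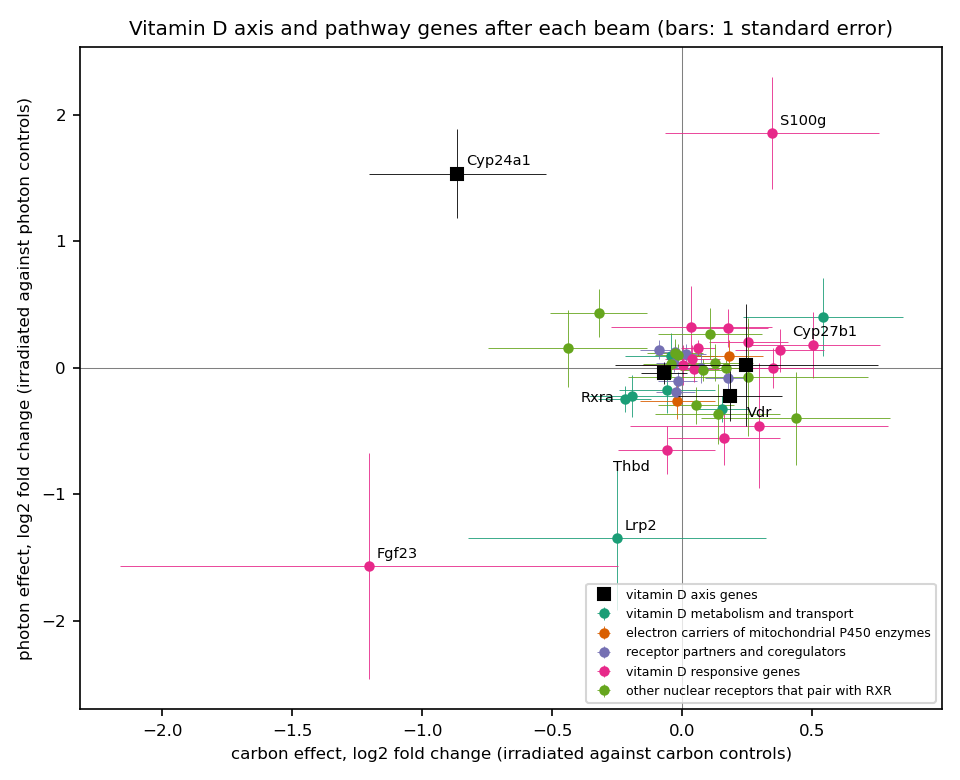
Each point is 1 gene, placed by its log2 fold change after carbon ions (horizontal axis) and after photons (vertical axis), with bars of 1 standard error from the edgeR fit. Black squares are the 4 vitamin D axis genes and colours mark the 5 pathway lists. Cyp24a1 stands in the upper left at -0.86 and 1.53, S100g at the top at 0.35 and 1.85, and Vdr, Rxra and Cyp27b1 lie near the centre.

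The wider pathway was read from 5 lists holding 52 genes, of which 45 were tested. After carbon ions 0 of the 45 passed. After photons 1 was higher (1.71% of all genes were) and 1 lower (2.1% of all genes were). With single libraries left out this count of 2 ran from 0, without photon control replicate 3 or 8, to 4, without photon control replicate 2. In the difference between the effects 0 passed in either direction (0.0342% of all genes were higher and 0.044% lower), with 6 at an unadjusted p under 0.05. The median log2 fold change of the 45 was 0.04 after carbon ions and 0.02 after photons, beside 0.01 and 0.00 for all genes tested.

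The vitamin D responsive list was the one with calls: of 21 genes, 15 were tested, and S100g rose and Thbd fell after photons. S100g encodes a small calbindin, a calcium-binding protein of the absorbing gut and a textbook target of Vdr. It lies at chrX:162961992-162964599 on the minus strand, inside the span of Ctps2 and sharing no exon base with it. Its lowest, median and highest levels were 0.386, 0.749 and 2.33 CPM in the photon controls and 1.11, 3.23 and 6.48 CPM after photons. All 8 treated libraries were above the control median, although the ranges overlapped. The log2 fold change was 1.85 (SE 0.44, edgeR adjusted p = 0.0194). Leaving out photon control replicate 3 or 8 ended this call, with adjusted p up to 0.0534.

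In the carbon-ion arm S100g did not follow Cyp24a1. Its lowest, median and highest levels were 1.40, 4.92 and 8.53 CPM in the controls and 1.08, 4.64 and 14.9 CPM after carbon ions, so that the treated range enclosed the control range. The log2 fold change was 0.35 (SE 0.41, edgeR adjusted p = 0.997). The difference of the effects was -1.51 (SE 0.60, adjusted p = 0.282), the same sign as that of Cyp24a1 but short of the threshold.

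S100g also differed between the untreated groups. It was higher in the carbon-ion controls than in the photon controls by a log2 fold change of 2.44 (SE 0.45, edgeR adjusted p = 0.00117), in 8 of 8 libraries against the photon control median. For both genes the photon controls, which enter this contrast and the photon effect alike, were the lowest group. Across libraries, Pearson's r of log2 CPM between S100g and Cyp24a1 was 0.23 over 32 libraries and -0.09 after each group mean was subtracted. Both are a description, because the libraries share depth and arm. The low counts of Cyp24a1 limit how far either value can be read.

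Thbd encodes thrombomodulin, the endothelial brake on clotting, which calcitriol raises in cultured cells. Its lowest, median and highest levels were 19.7, 24.9 and 39.0 CPM in the photon controls and 12.7, 15.3 and 22.97 CPM after photons. All 8 treated libraries were below the control median. The log2 fold change was -0.65 (SE 0.19, edgeR adjusted p = 0.0453). When each library was omitted in turn, the call held in 16 of 32 fits, and its adjusted p lay between 0.0247 and 0.124. The endothelial receptor gene Tek also fell after photons. Of the 6 endothelial markers 1 was lower, and their summed level ran from 231 to 456 CPM in the photon controls and from 171 to 383 CPM after photons. The part of this in the lower Thbd was not tested.

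**Figure D3:**
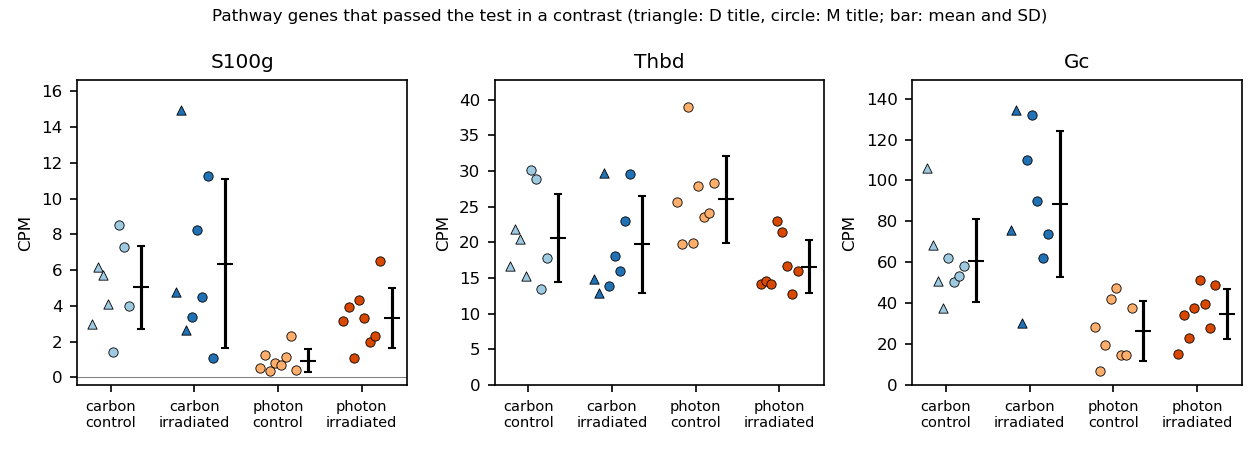
Each point is 1 tumour library and the vertical axis is CPM on a linear scale, with the mean and SD of 8 libraries beside each group; triangles are D titles and circles M titles. S100g is lowest in the photon controls (median 0.749 CPM), Thbd is lower after photons than in the photon controls (medians 15.3 and 24.9 CPM), and Gc is higher in both carbon-ion groups than in both photon groups.

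Because Vdr acts by binding near its target genes, promoter windows of S100g and of 3 of the 4 axis genes (Vdr, Rxra and Cyp27b1) were searched for its element. The windows come from RefSeq (GRCm38.p6) and hold 250 bases before the start site and 50 after it. No window for Cyp24a1 was used here. The element searched was a direct repeat of AGGTCA with a spacer of 3 bases, on both strands. Only 2 of 32851 windows (0.00609%) held it exactly, 3.06% held it with up to 2 mismatches and 22.4% with up to 3. None of these genes held it with up to 2. The closest stretch of each is printed below, with the 2 repeats in capitals and the spacer in lower case, to show how far from the repeat these windows are.
Cyp27b1: TGGTCCtggAGGTGA
Rxra: AGGACAgagTGCTCA
Vdr: AAGTCAagaAAGTTT
S100g: CTGTGCgcaAGGTCA
The stretch of Cyp27b1 and that of the second window of Rxra had 3 mismatches, a number met by 22.4% of all windows. Those of Vdr and S100g had 4. A match is a description of letters, and no match says only that the letters are not in this window.

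The upstream 250 bases of S100g (chrX:162964600-162964849, minus strand, GRCm38.p6) are printed because S100g was the responsive gene that rose after photons. Capitals mark the AGGTCA hexamer, read on either strand.
S100g: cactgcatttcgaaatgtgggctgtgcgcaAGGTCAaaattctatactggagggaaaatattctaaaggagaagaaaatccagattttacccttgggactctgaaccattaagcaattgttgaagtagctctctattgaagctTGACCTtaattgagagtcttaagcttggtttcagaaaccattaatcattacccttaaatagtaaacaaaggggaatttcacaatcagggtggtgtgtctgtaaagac
The sequence holds 2 such hexamers, 1 on each strand and far apart. At least 1 such hexamer occurs in 16.3% of all windows, which also hold the bases after the start site. The share of windows with 2 was not counted.

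No gene of the remaining lists passed after either beam. Of the genes for vitamin D metabolism and transport, 7 of 7 were tested. The smallest p in this list was that of Dhcr7 after carbon ions, the enzyme that draws the vitamin D precursor toward cholesterol, with a log2 fold change of -0.22 (edgeR adjusted p = 0.817) and a photon value of -0.25 (adjusted p = 0.146). After photons it was Pdia3, a protein-folding enzyme also described as a membrane binder of calcitriol, at -0.33 (adjusted p = 0.0629). The difference of the effects for Pdia3 was 0.48 (adjusted p = 0.147). Its photon controls held 362 to 486 CPM and its photon treated tumours 223 to 391 CPM, with 8 of 8 treated libraries below the control median.

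Fdxr and Fdx1 pass electrons to mitochondrial P450 enzymes such as Cyp24a1 and Cyp27b1. Neither passed in any contrast. The photon effect of Fdxr was -0.26 (edgeR adjusted p = 0.295) and the carbon-ion effect of Fdx1 was 0.18 (adjusted p = 0.996). All libraries held both genes at several CPM, the lowest being 4.78 CPM for Fdxr.

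Of 9 receptor partners and coregulators, 8 were tested, and 0 passed after carbon ions, after photons or in the difference. The smallest p belonged to the coactivator Snw1 after carbon ions (log2 fold change 0.18, edgeR adjusted p = 0.890), which shares 44.2% of its exon bases with Slirp on the opposite strand and is uncertain for that reason. After photons it belonged to Med1, a Mediator subunit that Vdr recruits, at -0.19 (adjusted p = 0.139).

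The other receptors that pair with retinoid X receptors numbered 13, all tested, and 0 passed in these contrasts. Nr1h2, an oxysterol receptor, had the smallest p after carbon ions at 0.17 (edgeR adjusted p = 0.628). The thyroid hormone receptor gene Thrb had it after photons at 0.44 (adjusted p = 0.168) and in the difference at -0.76 (adjusted p = 0.217). Thrb thus had the signs of Cyp24a1 in each arm, with a carbon-ion value of -0.32, and without passing. Within the responsive list, Spp1 (osteopontin) had the smallest p after carbon ions, at 0.35 (adjusted p = 0.805).

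The pathway genes that differed between the arms were chosen for naming after their values were seen. In the untreated controls 4 of 45 passed: Gc and S100g were higher and Med1 and Rara lower in the carbon-ion arm, where 5.13% of all genes were higher and 4.01% lower. Leaving out single libraries moved this count from 2 (without carbon-ion control replicate 6 or 7 or photon control replicate 1 or 6) to 7 (without carbon-ion control replicate 5). Between the treated groups 3 of 45 passed: 1 (Gc) was higher and 2 were lower after carbon ions than after photons, where 3.55% of all genes were higher and 1.54% lower. This count moved from 0, without photon treated replicate 1 or 3, to 5, without carbon-ion treated replicate 1. Gc, the vitamin D binding protein of blood plasma, had medians of 55.6 and 82.8 CPM in the carbon-ion arm, untreated and treated. In the photon controls and treated tumours its medians were 23.8 and 35.8 CPM. The log2 fold change of Gc between the controls was 1.21 (SE 0.31, edgeR adjusted p = 0.0136) and between the treated groups 1.35 (adjusted p = 0.0207). With M titles alone the first of these had an adjusted p of 0.0700. The second was lost without carbon-ion treated replicate 5 or photon treated replicate 1 or 3, with adjusted p up to 0.0576.

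Cell type markers were read in the same contrasts, and some passed in the photon effect and between the untreated groups. After photons, where 2.1% of all genes were lower, 2 of 8 macrophage markers (Csf1r and Mrc1) were lower, with summed levels of 505 to 969 CPM in the controls and 344 to 650 CPM in the treated tumours. Of 6 neutrophil markers 3 were lower, with summed levels of 97.2 to 276 and 52.9 to 154 CPM. Of 8 T cell markers 2 were lower and 1 higher, at 8.02 to 16.3 and 4.83 to 9.85 CPM, and of 8 fibroblast markers 1 (Pdgfrb) was lower, at 12700 to 27030 and 9296 to 17170 CPM. None of the 8 epithelial markers passed in that contrast, with summed levels of 3068 to 4635 CPM in the controls and 2569 to 4598 CPM after photons. Skeletal muscle markers had a median log2 fold change of -3.12 with 0 of 6 called, at 3.15 to 1264 and 0.963 to 307 CPM. The fitted change after photons was above 0 for 0 of 8 macrophage, 0 of 8 fibroblast, 0 of 6 neutrophil and 0 of 6 endothelial markers. It was above 0 for 6 of 8 epithelial (median 0.12), 2 of 3 tested keratinocyte (median 0.545) and 1 of 8 T cell markers. For skeletal muscle it was above 0 for 0 of 6, for adipocytes 0 of 4 and for pancreatic acinar cells 0 of 1 tested. In the carbon-ion effect 0 markers of any list passed. The 4 adipocyte markers had a median log2 fold change of -3.21 there, with 0 of 4 above 0, and summed to 4.18 to 76.1 CPM in the controls and 3.62 to 10.1 CPM after carbon ions. After photons the adipocyte median was -1.43, with 0 of 4 called and sums of 2.44 to 18.1 and 2.21 to 9.54 CPM. In the difference of the effects 0 markers of any list passed either. The fitted difference there was above 0 for 8 of 8 fibroblast, 8 of 8 macrophage, 7 of 8 T cell, 6 of 6 neutrophil, 6 of 6 endothelial, 6 of 6 skeletal muscle, 5 of 8 epithelial and 0 of 4 adipocyte markers. Their medians were 0.49, 0.56, 1.22, 0.92, 0.47, 3.04, 0.04 and -1.28 on the log2 scale in the same order, where Cyp24a1 was at -2.40. Of the 3 tested keratinocyte markers 1 was above 0 in the difference, with a median of -0.67. The 1 tested pancreatic acinar marker was above 0, at 0.54. After carbon ions the keratinocyte median was -0.095, with 1 of 3 above 0.

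Between the untreated groups, where 5.13% of all genes were higher and 4.01% lower in the carbon-ion arm, 2 of 8 fibroblast markers (Col1a2 and Pdgfra) and 1 of 6 endothelial markers (Esam) were lower in that arm, and 2 of 8 epithelial markers (Cdh1 and Cldn4) were higher. The adipocyte markers had a median log2 fold change of 1.37 there, with 0 of 4 called. Summed fibroblast levels were 6251 to 16650 CPM in the carbon-ion controls, those of endothelium 150 to 298 CPM and those of epithelium 3173 to 5586 CPM. The endothelial sum in the photon controls was 231 to 456 CPM. Whether any of these cell types carried the levels of Cyp24a1, S100g or Gc was not tested. Markers of the kidney tubule, the tissue best known for Cyp24a1 and Cyp27b1, were at or near 0: the 5 of them summed to at most 0.326 CPM in any library, and Slc22a12 and Umod were at 0 in all 32.

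The genes most like Cyp24a1 were ranked by Pearson's r of log2 CPM over the 32 libraries, as a description. Across all libraries the 6 highest were Fam185a (0.73), the Wnt receptor gene Fzd3 (0.70), Sorbs2 (0.70), Fryl (0.67), Fut9 (0.66) and the arginine methyltransferase gene Prmt9 (0.66). Like Cyp24a1, Fzd3 had its highest median after photons, at 16.4 CPM, against 8.14 CPM in the photon controls, 10.04 CPM among carbon-ion controls, and 7.81 CPM after carbon ions. This ranking keeps the group means, so it picks genes with a group pattern like that of Cyp24a1. After each group mean was subtracted the 6 highest were Cdk5rap3 (0.65), the topoisomerase gene Top2b (0.61), Rgs2 (0.61), Naa30 (0.61), Shld2 (0.60) and Efl1 (0.59). The rankings had 0 genes in common. With Spearman's rank correlation 3 of the first 6 and 1 of the second 6 remained.

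The other axis genes had correlations with Cyp24a1 below 0. Over the 32 libraries r was -0.28 for Vdr, -0.29 for Rxra and -0.08 for Cyp27b1. With group means subtracted it was -0.18, -0.42 and -0.11 in the same order. Libraries share depth, arm and tissue makeup, and Cyp24a1 and Cyp27b1 have low counts, so no test is attached to these correlations.

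**Figure D4:**
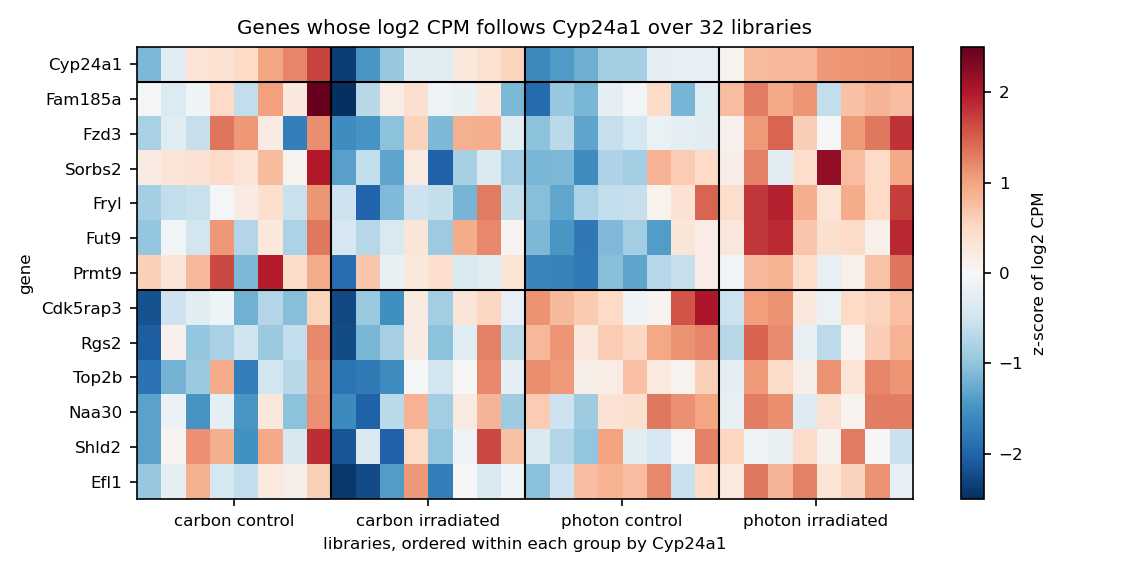
Rows are Cyp24a1, the 6 genes most like it across all libraries and the 6 most like it after group means were subtracted (separated by lines), and columns are the 32 libraries, ordered within each group by Cyp24a1. Colour is the z-score of log2 CPM of each gene over the libraries. The upper 6 rows have, like Cyp24a1, a higher median after photons than in the photon controls (16.8 against 13.4 CPM for Prmt9), and the lower 6 follow its order inside groups, with r from 0.59 to 0.65. Both likenesses come from how the rows were chosen, by r with Cyp24a1 in these same libraries.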

How the data were processed

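RNA was extracted from tumour tissue and made into stranded libraries from mRNA, per the labels' protocols. The submitters' processing notes name FastQC 0.12.0, Trimmomatic 0.32, RSEM 1.3.3 and the build mm10. The annotation and strand setting are not given in the sources used here. The authors deposited 1 table of estimated counts per gene and library, which was not scaled for depth. The tests had been laid out for counts, so the estimates were rounded to whole numbers, which changed totals by at most 0.00403%.

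Genes were kept by filterByExpr (minimum count 10). A model in edgeR 4.0.16 (R 4.3.3, TMM scaling, quasi-likelihood F test) held a coefficient for each of the 4 groups and used the 32 libraries together. P-values were adjusted by Benjamini-Hochberg over all 20474 genes, at a threshold of 0.05. Standard errors and 95% intervals came from that F statistic. CPM divides each rounded count by the total of its library after TMM scaling, and log2 CPM used a prior count of 2. The scripts were tested on simulated data with known changes. These were planted only in genes with higher expected counts than Cyp24a1 or Cyp27b1, so that run does not cover counts as low as theirs. Gene models came from GENCODE release M21 (GRCm38), and promoters and neighbouring genes from RefSeq GRCm38.p6.

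The 4 genes, the lists and the rules were chosen with earlier results of these data known, and Cyp24a1 was given no test in contrasts between groups. All 4 genes passed the filter, so the permutation test planned for a filtered gene was not needed. The genes named are the 4 axis genes, the pathway genes that passed (or the one with the smallest p in a list where none did), the 6 most like Cyp24a1 by each correlation where mean log2 CPM was 0 or above, and the 3 neighbours on each side. Predicted genes were passed over in the ranking by likeness, and the result of 1 pathway gene is not reported here. Alternatives were other scalings (RLE, upper quartile), no filter or a minimum count of 50, DESeq2 1.42.0, limma-voom (limma 3.58.1), the title letter as a covariate, M-titled libraries alone, and each library left out in turn.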

Additional observations from a re-analysis of the deposited data

Results flagged for a closer look

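Photon treated replicate 8 stood apart from the other 7 photon treated libraries in Cyp24a1. Its level was 0.270 CPM (9 estimated counts), and on the log2 scale the gap to the next library was 0.652 of the range of the group, above the limit of 0.526 for 8 libraries. It was still above every photon control. In all, 28 groups of libraries were examined over 7 genes, and chance alone would set a library apart in about 1 of 20 such groups.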

How the results depend on the processing

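The log2 changes of Cyp24a1 kept their direction under every alternative that gave a value. With each library left out in turn they ran from -1.01 to -0.68 after carbon ions, 1.43 to 1.67 after photons, -2.55 to -2.22 for the difference, 1.14 to 1.46 between the controls and -1.23 to -0.93 between the treated groups. With a minimum count of 50, Cyp24a1 and Cyp27b1 were filtered out and have no value. The sign of Rxra turned in the difference with M titles alone (0.012, adjusted p = 0.978) and between the treated groups with upper-quartile scaling (-0.044, adjusted p = 0.756). With single libraries left out, values ran from -0.036 to 0.312 for Vdr after carbon ions and -0.026 to 0.271 between the treated groups. For Rxra they ran from -0.066 to 0.013 after photons, -0.095 to 0.002 in the difference and -0.001 to 0.074 between the treated groups. For Cyp27b1 they ran from -0.158 to 0.865 after carbon ions, -0.086 to 0.329 after photons and -0.191 to 0.84 in the difference. For Thbd after carbon ions they ran from -0.167 to 0.04. No such value for these 4 genes passed the threshold. The call of the Thbd photon effect was lost with upper-quartile scaling (adjusted p = 0.0501) and with no filter (adjusted p = 0.0725). Counts over all genes moved more. After carbon ions 17 genes passed with DESeq2. After photons, 431 passed with no filter and 1524 with DESeq2, beside 781. In the difference, 94 passed with upper-quartile scaling, 4 with no filter, 262 with DESeq2 and 1 with M titles alone, beside 16. Between the controls, 1081 passed with the letter as covariate and 973 with M titles alone, beside 1871. Between the treated groups, 319 passed with no filter, 502 with the covariate and 1947 with DESeq2, beside 1041. With single libraries left out the counts ran from 0 to 5, 239 to 1656, 5 to 108, 1178 to 2196 and 108 to 2159 in the same order of contrasts, the photon count being lowest without photon control replicate 3 and highest without replicate 2. Upper-quartile scaling also moved the split of higher and lower calls, to 566 and 394 after photons (beside 351 and 430), to 22 and 72 in the difference (beside 7 and 9) and to 519 and 537 between the treated groups (beside 726 and 315). The cause of these shifts was not tested. Low counts limit Cyp24a1 and Cyp27b1, and single libraries can move either. No paired analysis was possible because the labels carry no replicate numbers, and those used here only name libraries.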
